A study of Mus musculus with 3 samples.

Results

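The cells described here are progenitors of mouse subcutaneous fat chosen for the summed transcripts of Krtdap, Dmkn, Sbsn and Bmp3. The first 3 of these genes are neighbours best known from differentiating epidermis. The cells were chosen by counts of unique molecular identifiers (UMIs), each of which stands for 1 captured transcript. A cell was selected when it had at least 3 UMIs of Dpp4 and Pi16 together, at most 1 UMI of Icam1 and Fabp4 together, at least 4 UMIs of Krtdap, Dmkn, Sbsn and Bmp3 together, and fewer than 10 UMIs of the interferon-response genes Ifit1, Ifit3, Rsad2 and Isg15 together. Cells were kept if over 500 genes were detected in them and under 5% of their UMIs were mitochondrial, and 6639 of these 34577 kept cells met the rule. These were 2510 of 12984 cells in mouse 1, 1349 of 6414 in mouse 2 and 2780 of 15179 in mouse 3. They are called Krtdap-positive progenitors, as a name for the whole gate. The comparison cells passed the same Dpp4 and Pi16, Icam1 and Fabp4, and interferon limits but had at most 1 UMI of Krtdap, Dmkn, Sbsn and Bmp3 together, and numbered 3850, 1334 and 5164 in mice 1, 2 and 3. A further 946, 353 and 1240 cells had 2 or 3 UMIs of the 4 genes and are called intermediate.

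Single-cell RNA sequencing was done on the stromal vascular fraction, the cells that sediment when collagenase-digested fat is spun and adipocytes float, from which CD31-positive (endothelial) and CD45-positive (leukocyte) cells were removed by sorting. The inguinal subcutaneous depot came from 3 wild-type male C57BL/6J mice aged 8 weeks, and each 10x Genomics droplet library was taken as 1 mouse. All libraries belonged to 1 condition, so mice were not compared with each other and each comparison between gates was made within mice. Counts were summed over the cells of a gate in each mouse, because cells of 1 mouse are not independent replicates, and are given as CPM, the count of a gene with the sum scaled to a total of 1000000 UMIs. The sums of Krtdap-positive progenitors held 19350870, 16639985 and 20166708 UMIs in mice 1, 2 and 3, and those of the comparison cells 26698976, 15568232 and 32425300.

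Adipose progenitors that express Dpp4, a membrane peptidase, and Pi16, a secreted peptidase inhibitor homologue, lie in the connective tissue around and within the depot and can give rise to preadipocytes, which express Icam1 and Fabp4. Krtdap (keratinocyte differentiation-associated protein), Dmkn (dermokine) and Sbsn (suprabasin) encode secreted proteins that keratinocytes release as they leave the basal layer of the skin. Bmp3 encodes a bone morphogenetic protein (BMP) family member that opposes the signalling of other BMPs.

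Sbsn (ENSMUSG00000046056, 30751471 to 30756134), Dmkn (ENSMUSG00000060962, 30763756 to 30781063) and Krtdap (ENSMUSG00000074199, 30787896 to 30791097) lie in this order on the plus strand of chromosome 7 in GRCm38 and together span 39.6 kb. Bmp3 (ENSMUSG00000029335) lies elsewhere, on chromosome 5 from 98854415 to 98884396. An exon of Sbsn overlaps one of Tmem147os on the same strand, so counts of these genes cannot be fully told apart. The start-site windows of the 3 neighbours are shown because the genes were counted in the same cells. RefSeq windows of GRCm38.p6 reach from 250 bases before the annotated start to 50 bases after it. They were searched on both strands for the AP-1 motif TGACTCA or TGAGTCA, each the reverse complement of the other, which is bound by dimers of Fos and Jun proteins. The capitals mark the match. The windows are chr7:30787655-30787954 for Krtdap, chr7:30763506-30763805 for the upstream start of Dmkn and chr7:30751221-30751520 for Sbsn, all on the plus strand.
Krtdap: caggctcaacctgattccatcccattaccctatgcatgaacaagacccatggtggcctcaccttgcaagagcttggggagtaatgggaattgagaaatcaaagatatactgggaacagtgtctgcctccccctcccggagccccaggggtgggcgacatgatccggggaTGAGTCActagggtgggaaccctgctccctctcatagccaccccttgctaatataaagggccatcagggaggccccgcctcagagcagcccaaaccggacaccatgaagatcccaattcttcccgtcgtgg
Dmkn: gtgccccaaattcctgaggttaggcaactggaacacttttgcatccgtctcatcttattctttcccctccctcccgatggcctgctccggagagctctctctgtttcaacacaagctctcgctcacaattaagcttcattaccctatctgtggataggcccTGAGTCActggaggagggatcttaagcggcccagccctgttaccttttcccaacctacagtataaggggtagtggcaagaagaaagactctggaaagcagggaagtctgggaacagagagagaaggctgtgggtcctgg
Sbsn: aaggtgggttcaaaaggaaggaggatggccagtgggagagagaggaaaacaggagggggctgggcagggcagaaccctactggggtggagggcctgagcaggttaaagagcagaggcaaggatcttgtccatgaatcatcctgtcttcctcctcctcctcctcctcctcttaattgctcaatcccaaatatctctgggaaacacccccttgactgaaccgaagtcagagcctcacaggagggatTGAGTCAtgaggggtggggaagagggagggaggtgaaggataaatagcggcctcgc
The match began at position -81 from the start in Krtdap, -89 in Dmkn and -6 in Sbsn. The other listed windows of Dmkn held it at -91 and -82. Of all promoter windows in the RefSeq table, 1709 of 32851 (5.20%) held the motif. It was not found in the windows of Ptgs1, Itgb7 or Uchl1, which are described further on. Windows of Il34 and Bmp3 were not among those searched. A match is a description of letters only, and no binding was measured.

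None of the tested genes around the 3 neighbours passed the test. Cox6b1, a subunit of cytochrome c oxidase, was at 190, 267 and 174 CPM in Krtdap-positive progenitors of mice 1, 2 and 3 and at 181, 244 and 168 CPM in comparison cells. Its log2 fold change of 0.05 did not pass the test, which is described further on (adjusted p = 0.441, edgeR). Rbm42, Haus5 and Tmem147, the other tested genes within the surveyed neighbourhood, had log2 fold changes of 0.06, 0.24 and 0.07 and did not pass either. Etv2, Gapdhs and Mag had no UMI in either gate.

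The 4 genes were spread continuously over the gated cells rather than in separate peaks. Krtdap-positive progenitors made up 19.3% of kept cells in mouse 1 (95% exact Clopper-Pearson interval 18.7 to 20.02), 21.03% in mouse 2 (20.04 to 22.1) and 18.3% in mouse 3 (17.7 to 18.9), or 19.6% ± 1.37 (SD, n = 3 mice). Such intervals cover counting error only. Of cells that passed the other gates they made up 34.4%, 44.4% and 30.3% in mice 1, 2 and 3. The share of gated cells was highest in mouse 2, whose cells were also the deepest, with a median of 12192.5 UMIs in kept cells against 7392.5 in mouse 1 and 6667 in mouse 3. With all cells thinned to 3000 UMIs and at least 2 UMIs of the 4 genes required, members were 20.4%, 18.8% and 21.2% of kept cells in mice 1, 2 and 3, so that mouse 2 had the lowest share in place of the highest. The gate is a range along a count and not a boundary between types. With a minimum of 8 UMIs the members were 12.8% of kept cells, and with a minimum of 2 they were 26.5%. The cells just inside the limit, with 4 UMIs, numbered 294, 126 and 352, and those just outside, with 3, numbered 385, 138 and 465. The median of the members' own sums was 10, 13 and 10 UMIs.

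**Figure D1:**
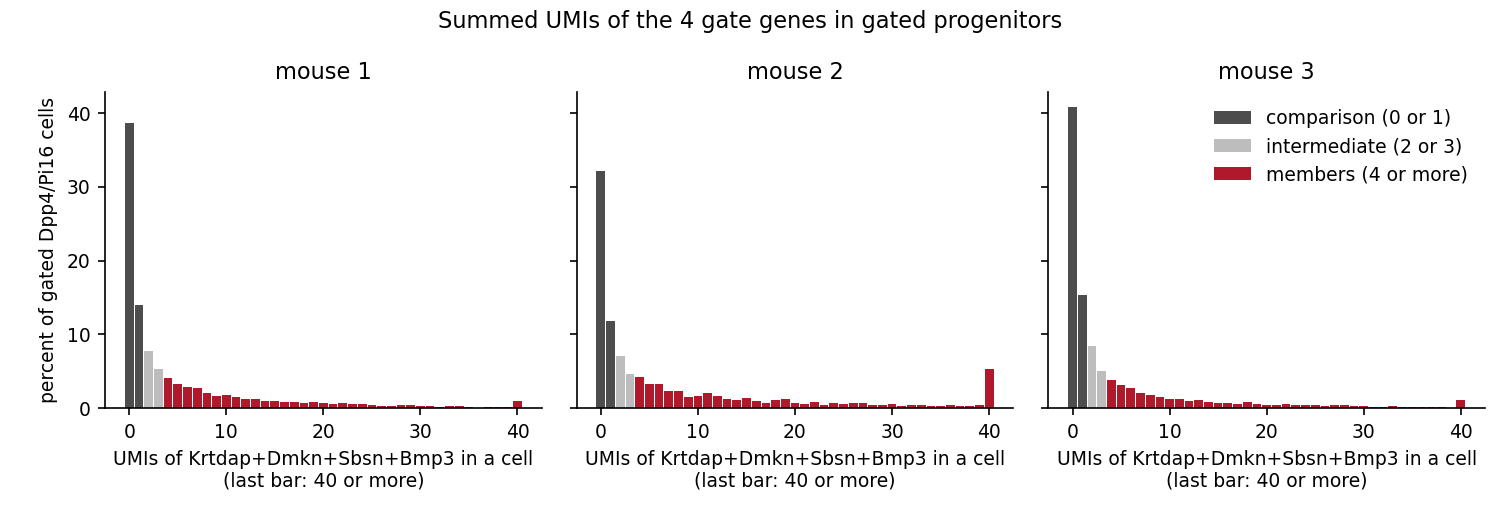
Distribution of the summed UMIs of Krtdap, Dmkn, Sbsn and Bmp3 (x axis, UMIs per cell) over cells that passed the other gates, as a percentage of those cells (y axis), in mice 1, 2 and 3. The bars decline from a peak at 0 UMIs with no gap at the limit of 4, and the last bar gathers the cells with 40 or more.

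Sbsn carried most of the gate. The levels of the 4 gate genes chose the cells and are therefore given as a description, with no test. Sbsn was at 1175, 1012 and 1267 CPM in Krtdap-positive progenitors of mice 1, 2 and 3 and at 30.8, 19.6 and 34.2 CPM in comparison cells. At least 1 Sbsn UMI was found in 99.4%, 99.6% and 99.5% of members. Dmkn was found in 60.0%, 54.1% and 56.2% of members, Krtdap in 46.7%, 47.5% and 39.9%, and Bmp3 in 27.2%, 28.4% and 34.6%. All 4 genes were found in 12.7%, 14.6% and 15.2% of members and only 1 of them in 22.6%, 25.6% and 26.5%. The name Krtdap-positive thus covers a majority of cells with no Krtdap UMI in each mouse.

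The genes also went together where the rule did not require it. When Krtdap was left out of the rule, so that it did not choose the cells, it was at 155, 198 and 156 CPM in the cells with at least 4 UMIs of the other 3 genes and at 4.58, 3.05 and 3.76 CPM in those with at most 1. Dmkn left out of the rule in the same way was at 328, 319 and 350 CPM against 8.73, 4.65 and 9.31 CPM. Bmp3, which is not a neighbour of the others, was at 54.6, 37.2 and 79.2 CPM against 7.66, 4.09 and 12.0 CPM. The contrast was smaller for Bmp3 and Sbsn than for Krtdap and Dmkn. Sbsn left out of the rule was at 1551, 1435 and 1701 CPM against 222, 196 and 229 CPM. Of the cells with at most 1 UMI of the other 3 genes, 46.5%, 53.2% and 45.4% still had an Sbsn UMI. Among cells with at least 4 Sbsn UMIs, Dmkn was found in 74.4%, 71.5% and 76.3% of those with a Krtdap UMI and in 45.2%, 40.0% and 41.5% of those without. Bmp3 was found in 35.5%, 40.6% and 48.0% of the cells with Krtdap and in 18.6%, 15.9% and 23.9% of those without. These shares are given with no test, because cells with more UMIs detect every gene more often.

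Cells of a preadipocyte gate and a regulatory gate, both with little Dpp4 and Pi16, rarely reached the limit. Cells that met the Dpp4 and Pi16 limit but had more than 1 UMI of Icam1 and Fabp4 were not examined as a gate. The preadipocyte gate had at least 3 UMIs of Icam1 and Fabp4 and at most 1 of Dpp4 and Pi16. It held 0 of 2058, 0 of 1402 and 1 of 1800 cells with 4 or more UMIs of the 4 genes. For the counts of 0, the 95% exact Clopper-Pearson interval reached 0.179% in mouse 1 and 0.263% in mouse 2. A regulatory gate (at least 3 UMIs of Clec11a and Fmo2, markers of adipogenesis-regulatory cells, and at most 1 of Dpp4 and Pi16) held 0 of 347, 0 of 578 and 1 of 518 such cells. After every cell was thinned to 3000 UMIs to make depths equal, Sbsn was found in 4.22%, 3.22% and 5.49% of cells of the preadipocyte gate. It was then found in 92.2%, 87.4% and 93.6% of members and in 8.91%, 5.51% and 10.5% of comparison cells. The rule that chose these 2 gates used Sbsn, so their shares are a description only. Without thinning the shares were 99.4%, 99.6% and 99.5% of members, 21.3%, 22.9% and 21.5% of comparison cells and 10.6%, 10.8% and 9.50% of the preadipocyte gate. Thinning left out 95, 7 and 117 members, 392, 46 and 607 comparison cells and 66, 35 and 88 cells of the preadipocyte gate that had fewer UMIs. Median depths before thinning were 7445.5, 12059 and 6954 UMIs in members and 7899, 12881.5 and 7101.5 in the preadipocyte gate. A small endothelial and mural gate (at least 3 UMIs of Pecam1, Cdh5, Kdr, Rgs5, Notch3 and Myh11), whose CD31-positive cells the sort should have removed, held 7 of 98, 3 of 71 and 3 of 66 cells with 4 or more UMIs of the 4 genes. That gate had no upper limit on Dpp4 and Pi16, so these cells can also be members. No doublet caller was run, and whether these few cells were doublets was not tested.

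Markers of keratinocytes, the cells in which Krtdap, Dmkn and Sbsn are best known, were low in members, and apart from Krt10 most were at or near 0. Of 22 keratinocyte markers, 8 had no UMI in the Krtdap-positive progenitors of any mouse, among them the basal keratin Krt5, the cornified-envelope protein involucrin (Ivl) and the desmogleins Dsg1a and Dsg3. Krt14 was at 0.0165 CPM, Krt1 at 0.0373 CPM and the epidermal master regulator Trp63 at 0.0172 CPM (means of 3 mice). The summed level of the 22 genes was 30.6, 37.8 and 31.5 CPM in members of mice 1, 2 and 3 and 28.7, 32.8 and 31.3 CPM in comparison cells. Krt10, the most abundant of them, accounted for most of it at 28.5, 34.2 and 27.3 CPM in members against 26.8, 29.5 and 24.9 CPM, and its log2 fold change of 0.10 did not pass (adjusted p = 0.208, edgeR). Of all genes tested, 10.3% were higher and 11.6% were lower in members. Epcam, the 1 keratinocyte marker that fell (log2 fold change -1.25), was at 0, 0 and 1.34 CPM in members and at 0.0375, 0.0642 and 2.96 CPM in comparison cells. Of 26 other genes of epidermal secretion and the cornified envelope, 13 had no UMI in members, including the filaggrins Flg and Flg2, and of the 5 tested 2 rose and 3 did not pass. Those that rose were Krt80, a type II keratin, by 1.09, and S100a16, a calcium-binding protein, by 0.11. S100a16 kept its call in 10 of 19 alternatives and lost it, among others, with DESeq2, without mouse 1 and without mouse 3.

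Markers of the other cell types that the sample could hold were also low. The leukocyte markers summed to 8.63, 6.25 and 5.40 CPM in members and to 5.24, 15.8 and 5.34 CPM in comparison cells, with Ptprc, the gene of CD45, at 0 in members of every mouse and Cd68 the most abundant at 2.97 CPM. The endothelial and mural markers summed to 16.4, 13.4 and 14.4 CPM against 29.7, 18.9 and 22.7 CPM, with Des the most abundant at 6.44 CPM. The mesothelial markers summed to 15.1, 8.59 and 21.5 CPM against 12.96, 7.26 and 18.1 CPM, with Krt19 the most abundant and Msln at 0.0172 CPM. The Schwann and perineurial markers summed to 44.2, 44.1 and 39.6 CPM against 41.6, 41.7 and 34.0 CPM, with Mbp the most abundant. The tendon and fascia markers summed to 35.8, 69.4 and 67.2 CPM against 55.4, 94.2 and 80.6 CPM, with Prg4 the most abundant. The erythroid genes summed to 56.6, 2.58 and 3.67 CPM against 11.6, 5.20 and 32.4 CPM, so that mouse 1 alone was high in members and mouse 3 in comparison cells. Of the genes that could be tested, 1 rose and 1 fell of 5 mesothelial, 1 rose of 4 leukocyte and 6 fell of 8 endothelial and mural genes. Of 7 Schwann and perineurial genes 2 rose and 2 fell, of 6 tendon and fascia genes 4 fell, and of 4 erythroid genes none passed. Beside the 10.3% and 11.6% of all genes tested, such counts of 1 gene in a list of 4 or 5 show nothing about the list. Krt19 rose by 0.63 on the log2 scale, Mbp rose by 0.38 and Prg4 fell by 0.43. Mbp no longer passed after thinning (0.27) or against comparison cells matched on Dpp4 and Pi16 UMIs (0.13). Pecam1, the gene of CD31, was at 0.207, 0.1202 and 0.0992 CPM in members and at 0.861, 0.899 and 0.247 CPM in comparison cells, and fell by 2.16. Their part in the other differences was not tested.

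Il34, Ptgs1, Itgb7 and Uchl1 were not used to choose the cells, and all were higher in Krtdap-positive progenitors than in comparison cells of every mouse. They had been named as markers of these cells on the same data, so their values are a description with no test. Il34 (ENSMUSG00000031750, chromosome 8, 110741829 to 110805924), which encodes a ligand of the CSF1 receptor on macrophages, was at 29.8, 24.6 and 36.5 CPM in members of mice 1, 2 and 3 and at 1.69, 1.35 and 1.36 CPM in comparison cells, a difference of 4.37 on the log2 scale (SE 0.110, n = 3 mice). It was at 3.52 ± 1.70 CPM (SD, n = 3) in the preadipocyte gate and 1.54 ± 0.824 CPM in the regulatory gate. The endothelial and mural gate held 14.9 ± 6.78 CPM from 98, 71 and 66 cells.

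Ptgs1 (ENSMUSG00000047250, chromosome 2, 36230426 to 36252272) encodes cyclooxygenase 1, which makes the precursor of the prostaglandins. It was at 64.5, 54.3 and 84.6 CPM against 11.3, 9.57 and 15.2 CPM, or 2.45 higher on the log2 scale (SE 0.0504). Itgb7 (ENSMUSG00000001281, chromosome 15, 102215995 to 102231944) encodes the integrin β7 chain. It was at 85.0, 104 and 102 CPM against 15.3, 12.98 and 23.7 CPM, or 2.40 higher (SE 0.111). Its known partners were nearly absent, with Itga4 at 0.0165 CPM and Itgae at 0.161 CPM in members. Uchl1 (ENSMUSG00000029223, chromosome 5, 66676091 to 66687234), a ubiquitin hydrolase abundant in neurons, was at 142, 147 and 177 CPM against 49.3, 61.7 and 54.5 CPM, or 1.47 higher (SE 0.0601). In the preadipocyte gate Ptgs1 was at 1.81 ± 0.337 CPM, Itgb7 at 0.611 ± 0.608 CPM and Uchl1 at 2.32 ± 0.468 CPM (SD, n = 3). The levels of members and comparison cells did not overlap for any of the 4 genes, a description given without a share over all genes tested.

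After thinning to 3000 UMIs, Il34 was found in 8.57%, 7.15% and 9.88% of members and in 0.463%, 0.233% and 0.241% of comparison cells. In the preadipocyte gate it was found in 0.502%, 1.61% and 0.759% of cells. Itgb7 was found in 19.2%, 23.1% and 22.9% of members, in 3.76%, 3.73% and 6.21% of comparison cells and in 0.1004%, 0.0732% and 0.350% of cells of the preadipocyte gate. Without thinning, Il34 was found in 17.2%, 18.6% and 18.9% of members, in 1.12%, 1.42% and 0.775% of comparison cells and in 1.41%, 4.71% and 2.17% of the preadipocyte gate. For Itgb7 these shares were 34.9%, 44.9% and 37.9%, then 7.79%, 8.85% and 10.9%, and then 0.340%, 0.143% and 0.889%. Both genes were thus found more often in members than in comparison cells or the preadipocyte gate of every mouse, with and without thinning. In the small endothelial and mural gate Il34 was found in 12.3%, 4.65% and 3.70% of cells after thinning and in 12.2%, 4.23% and 4.55% without it, so that after thinning its share in mouse 1 was above that of members. Members held 20.4%, 21.3% and 20.3% of all UMIs of kept cells, but 71.9%, 65.4% and 75.5% of those of Il34, 63.3%, 67.3% and 61.9% of those of Ptgs1 and 65.7%, 76.4% and 58.9% of those of Itgb7.

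The sums of members and comparison cells were compared for every gene outside the gates with edgeR's quasi-likelihood test, with the mouse as a block and Benjamini-Hochberg adjustment. Of 12983 genes tested, 1331 (10.3%) were higher and 1502 (11.6%) were lower in Krtdap-positive progenitors at an adjusted p under 0.05. With at least a 2-fold change, 161 (1.24%) were higher and 307 (2.36%) were lower. The cells were divided by expression, so the test describes genes that varied with the 4 gate genes and not a separate population. Scaling by library size alone instead of by TMM, which corrects for composition, gave 1930 higher and 1276 lower, so that 60.2% of calls were higher in place of 47.0%. Without the mouse block, 62 genes were higher and 88 lower. Leaving out mouse 1 gave 756 higher and 948 lower.

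**Figure D2:**
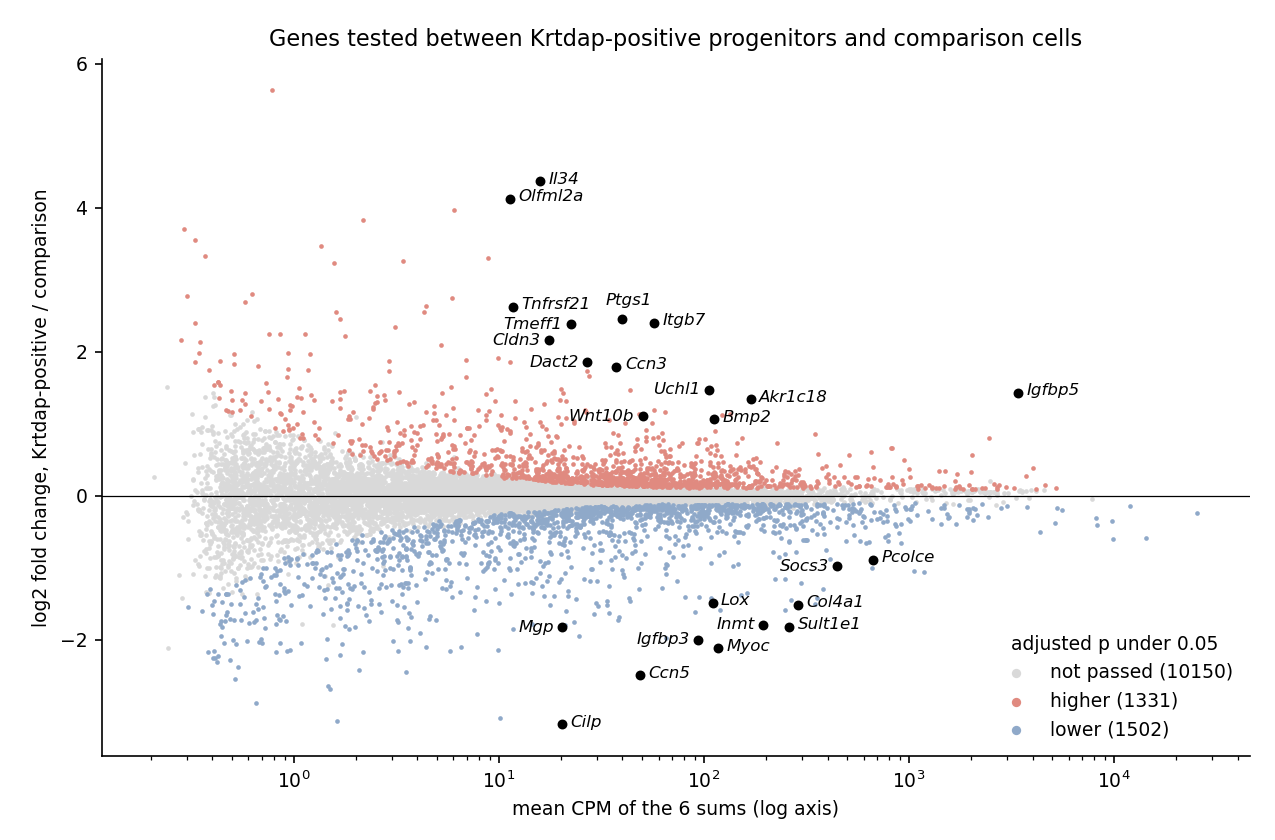
Log2 fold change of Krtdap-positive progenitors over comparison cells (y axis) against the mean CPM of the 6 sums (x axis, log scale) for the 12983 genes tested with edgeR, 1 point per gene, coloured by an adjusted p under 0.05. Il34 and Olfml2a lie above 4 and Cilp lies lowest of the labelled genes at -3.17.

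Outside the gene lists, the 15 genes with the largest rises among those with at least 20 CPM rose by 1.20 to 4.12 on the log2 scale. Olfml2a, an extracellular olfactomedin-like protein, was at 17.2, 16.5 and 30.4 CPM in members and at 1.27, 0.964 and 1.36 CPM in comparison cells, and rose by 4.12 on the log2 scale (SE 0.129, edgeR adjusted p = 5.41e-10). Tnfrsf21, the death receptor DR6, was at 19.4, 14.1 and 27.2 CPM against 2.66, 2.31 and 4.60 CPM, and rose by 2.62 (SE 0.0954, edgeR adjusted p = 1.86e-09). Tmeff1, a membrane protein with follistatin domains, was at 38.0, 27.0 and 48.3 CPM against 5.96, 3.92 and 10.9 CPM and rose by 2.38. For none of these 3 genes, chosen for large rises, did the levels of members and comparison cells overlap. No share over all genes tested is given. Cldn3, a tight-junction claudin, was at 28.3, 27.8 and 30.6 CPM against 6.22, 4.88 and 7.37 CPM and rose by 2.16. Ccn3, a matricellular protein, rose by 1.79, and Cd200, the ligand of an inhibitory receptor on myeloid cells, rose by 1.48. The progesterone-metabolising enzyme Akr1c18 was at 234, 255 and 241 CPM against 85.7, 85.7 and 110 CPM and rose by 1.34. Fam167a, the metalloprotease Adamts16, the cell-surface protein Ecscr, the G protein subunit Gng4, the guidance receptor Robo1, the adhesion molecule Negr1, the antisense RNA Gm45187 and the type I keratin Krt23 rose by 1.20 to 1.73. Whether counting used strand is not given in the sources used here, so the value of Gm45187 is uncertain. Gng4 and Krt23 overlapped between the gates across mice. A rise in every mouse was required of all these genes.

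**Figure D3:**
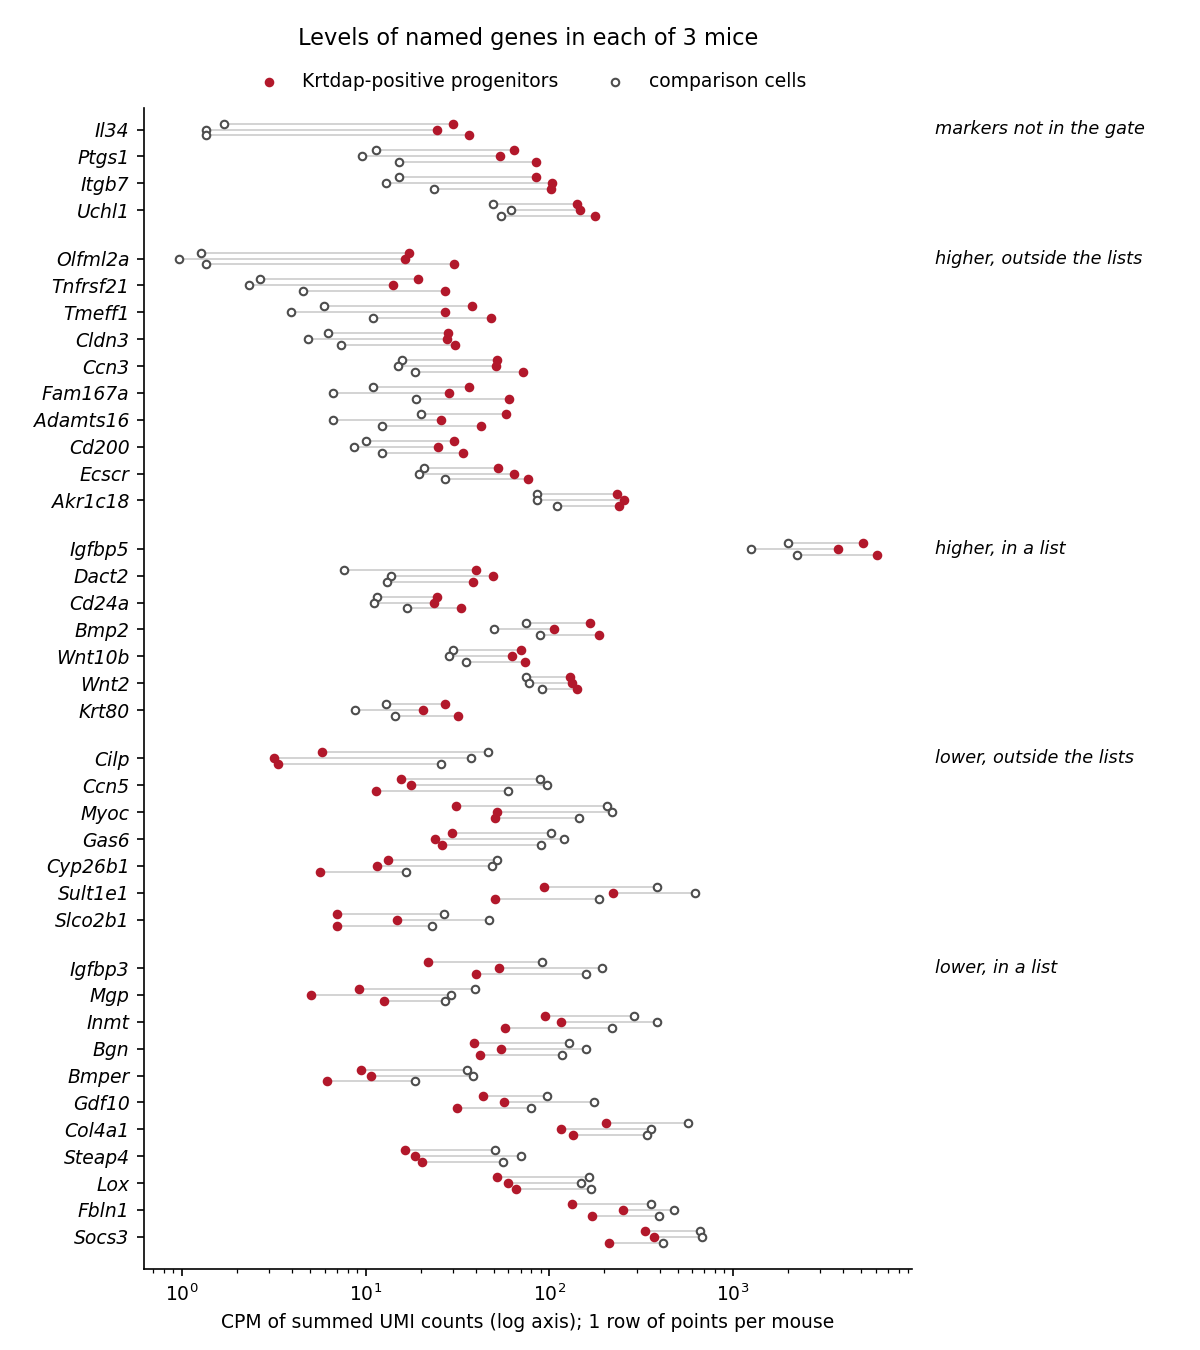
CPM (x axis, log scale) of named genes in Krtdap-positive progenitors (filled) and comparison cells (open), with 1 pair of points per mouse joined by a line. Every filled point lies to the right of its open partner for the genes listed as higher and to the left for those listed as lower, in each of the 3 mice. Genes other than the markers were named only if they had 1 sign in all mice, so their agreement was fixed by that choice.

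Markers of the interstitial Dpp4 progenitors rose more often than they fell. Of 30 tested from a list of such markers, 18 rose, 4 fell and 8 did not pass (all genes: 10.3% higher, 11.6% lower). Their median log2 fold change was 0.25 against 0.01 over all genes tested. Igfbp5, a secreted binding protein of insulin-like growth factors, was at 5108, 3745 and 6107 CPM in members and at 1986, 1260 and 2232 CPM in comparison cells, and rose by 1.43 (SE 0.042, edgeR adjusted p = 3.71e-10). Dact2, an intracellular modulator of Wnt signalling, was at 39.8, 49.3 and 38.3 CPM against 7.60, 13.7 and 13.1 CPM and rose by 1.85. Cd24a, a surface glycoprotein, rose by 1.00 and Limch1, an actomyosin regulator, by 0.90. Cd55 and Sema3c, both much used to mark these progenitors, rose by 0.66 and 0.61. The stem and progenitor antigens Ly6a, Pdgfra and Cd34 did not follow, with log2 fold changes of -0.14 and -0.35, which passed, and 0.04, which did not. The gate genes Dpp4 and Pi16 were at 803 ± 275 and 4335 ± 896 CPM in members and at 742 ± 283 and 3147 ± 327 CPM in comparison cells (SD, n = 3). Members thus carried more of the gate's own UMIs, with a median of 33, 68 and 32.5 UMIs of Dpp4 and Pi16 against 23, 38.5 and 22.

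Markers of later or other adipose progenitors fell. Of 20 tested preadipocyte markers, 18 fell and 2 rose (all genes: 11.6% lower, 10.3% higher). Their median log2 fold change was -1.01 against 0.01 over all genes. Ggt5, a glutathione-metabolising enzyme, was at 8.27, 5.65 and 5.36 CPM in members and at 23.3, 29.6 and 14.6 CPM in comparison cells, and fell by 1.79. Col4a1, a collagen of basement membranes, was at 203, 116 and 135 CPM against 570, 358 and 343 CPM and fell by 1.52 (SE 0.0450, edgeR adjusted p = 3.71e-10). Steap4, a metalloreductase, fell by 1.69 and Col15a1 by 1.53. Pparg, the central transcription factor of adipocyte differentiation, was low in both gates, at 1.78 ± 0.346 and 5.10 ± 0.381 CPM (SD, n = 3), and fell by 1.54. The members that rose were Zfp423 and Ebf2, both transcription factors of adipose commitment, by 0.36 and 0.17. In the preadipocyte gate Col4a1 was at 3579 ± 647 CPM and Steap4 at 424 ± 67.9 CPM, so members and comparison cells both lay well below it.

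All 12 tested markers of adipogenesis-regulatory cells fell, with a median of -1.56 (all genes: 11.6% lower). Their summed level was 297, 393 and 275 CPM in members of mice 1, 2 and 3 and 871, 1250 and 819 CPM in comparison cells. Igfbp3, another binding protein of insulin-like growth factors, was at 21.8, 53.1 and 40.1 CPM against 91.2, 194 and 159 CPM and fell by 2.00 (SE 0.0480, edgeR adjusted p = 1.12e-10). Mgp, an inhibitor of calcification, fell by 1.83, Inmt, a methyltransferase, by 1.79 and Bgn, a small proteoglycan, by 1.62. Cells with a UMI of Cilp, Myoc, Clec11a or Fmo2 were 14.8%, 20.9% and 16.1% of members and 28.1%, 36.4% and 26.5% of comparison cells. Without those cells Mgp fell by 0.64 and Igfbp3 by 1.82, and 1126 genes were higher and 1239 lower.

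Members and comparison cells also differed in how strongly they met the Dpp4 and Pi16 gate. When comparison cells were drawn to match the members' Dpp4 and Pi16 UMIs, leaving 1684, 521 and 1388 cells, 911 genes were higher and 1190 lower. In that comparison Il34 was 3.92 and Itgb7 2.11 higher on the log2 scale, and Igfbp5 rose by 1.47. Col15a1 fell by 0.53 in place of 1.53 and Gdf10 by 0.64 in place of 1.41, while Inmt fell by 1.80 and Igfbp3 by 2.27. Ggt5, Steap4, Col4a1 and Cyp26b1 fell by 1.11, 1.04, 0.85 and 1.04 there.

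**Figure D4:**
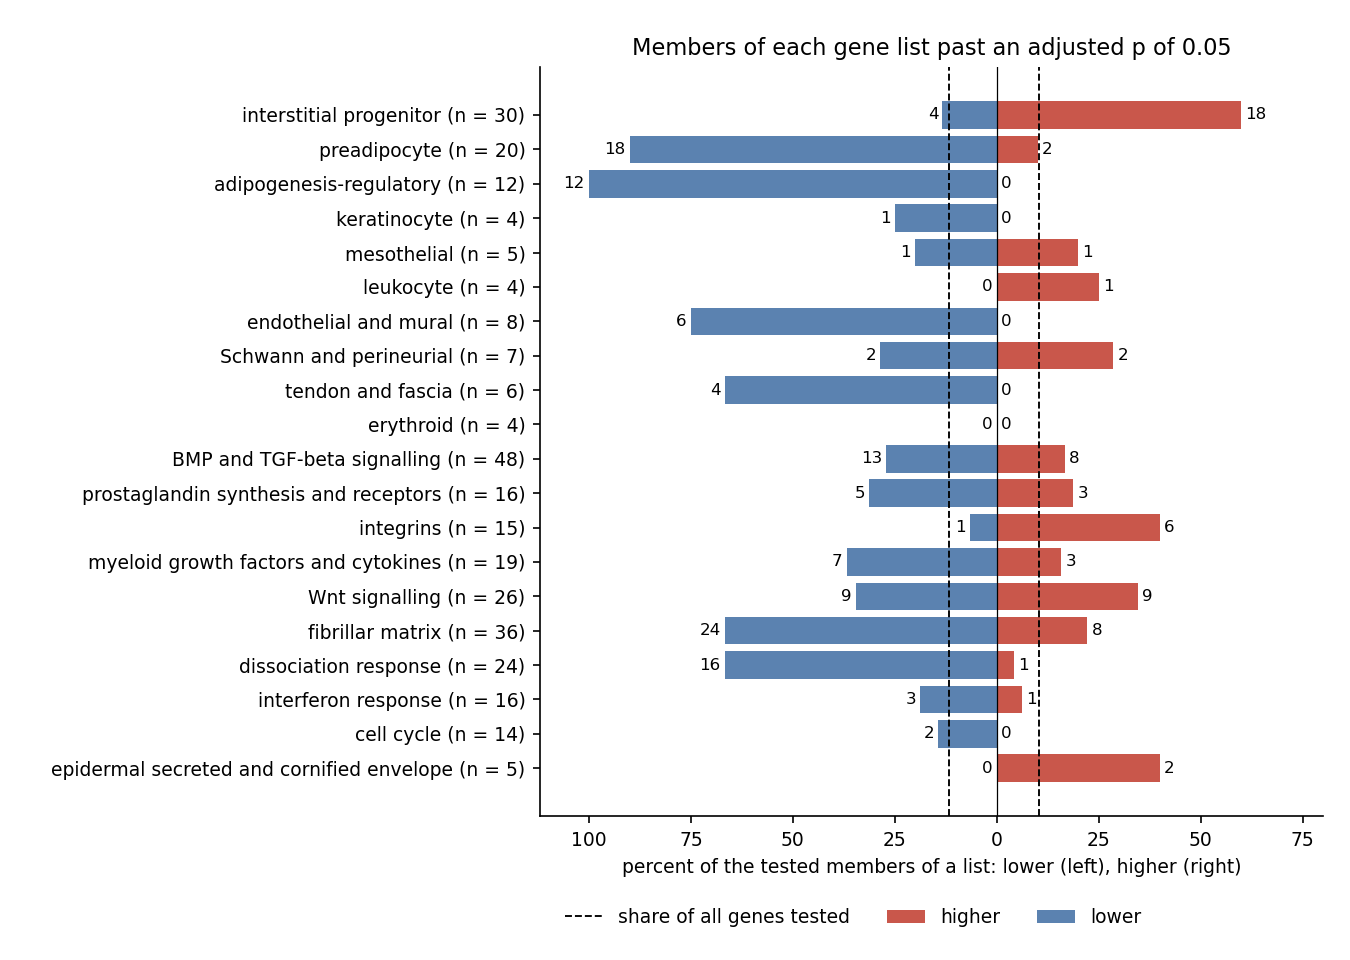
Percentage of the tested members of each gene list (number in brackets) that were lower (left) or higher (right) in Krtdap-positive progenitors at an adjusted p under 0.05 by edgeR, with the count at the end of each bar and dashed lines at the 11.6% and 10.3% of all genes tested. All 12 adipogenesis-regulatory markers fell, and 18 of 30 interstitial progenitor markers rose.

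The largest falls outside the lists were led by Cilp, Ccn5 and Myoc. Cilp, a protein of cartilage matrix, was at 5.79, 3.19 and 3.32 CPM in members and at 46.7, 37.7 and 25.7 CPM in comparison cells, and fell by 3.17 (SE 0.0913, edgeR adjusted p = 3.61e-10). Ccn5, a matricellular protein, was at 15.6, 17.8 and 11.4 CPM against 89.7, 97.2 and 59.9 CPM and fell by 2.49 (SE 0.0503, edgeR adjusted p = 2.66e-11). Myoc, a secreted glycoprotein, was at 31.2, 51.7 and 50.5 CPM against 205, 220 and 145 CPM and fell by 2.12. None of these 3 genes overlapped between the gates, which describes genes chosen for large falls, with no share over all genes tested. Gas6, a ligand of TAM receptors, fell by 1.98 and Cyp26b1, which degrades retinoic acid, by 1.94. Sult1e1, the oestrogen sulfotransferase, varied widely between mice, at 94.2, 223 and 50.5 CPM against 385, 624 and 187 CPM, and fell by 1.82 with overlapping levels. The transporter Slco2b1 and the secreted proteins Crispld2 and Spon1 fell by 1.65 to 1.79.

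Genes of BMP signalling went both ways. Tested genes of BMP and transforming growth factor β (TGF-β) signalling numbered 48. Of these, 8 rose, 13 fell and 27 did not pass, with a median of -0.01 (all genes: 10.3% higher, 11.6% lower). Bmp2 was at 167, 107 and 186 CPM in members and at 74.8, 50.2 and 89.6 CPM in comparison cells, and rose by 1.06 (SE 0.0400, edgeR adjusted p = 2.47e-09). The ligand genes Bmp6, Bmp7 and Bmp4 rose by 1.86, 0.87 and 0.70, while Gdf10, also called Bmp3b, fell by 1.41. Of the secreted modulators, Bmper was at 9.41, 10.8 and 6.20 CPM against 35.8, 38.6 and 18.6 CPM and fell by 1.84. The antagonists Chrdl1 and Fst fell by 0.95 and 0.61, and Chrd rose by 0.23. The receptors Bmpr1a, Bmpr2 and Acvr1 had log2 fold changes from -0.04 to 0.04 that did not pass. Among target genes of BMP signalling, Id1 and Id2 fell by 1.04 and 0.68, and Id3 (0.05) did not pass.

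Genes of Wnt signalling rose as often as they fell. Of 26 tested Wnt genes, 9 rose, 9 fell and 8 did not pass, with a median of -0.11 (all genes: 10.3% higher, 11.6% lower). Wnt10b, an inhibitor of adipogenesis, was at 70.3, 62.4 and 74.2 CPM in members and at 30.1, 28.3 and 35.3 CPM in comparison cells, and rose by 1.11 (SE 0.0473, edgeR adjusted p = 5.84e-09). Wnt2 was at 130, 133 and 142 CPM against 74.5, 78.1 and 91.4 CPM and rose by 0.70. Wnt5b, Wnt9a, Wnt11 and Wnt16 also rose, while Wnt5a fell by 0.19. The receptors Fzd8 and Fzd2 rose by 0.59 and 0.40 and Fzd4 fell by 0.49. The secreted Wnt antagonists Sfrp1, Dkk2 and Sfrp2 fell by 0.95, 0.78 and 0.64, while Sfrp4 (-0.17) and Dkk3 (-0.23) did not pass. Of the R-spondins, which enhance Wnt signalling, Rspo3 rose by 1.19 and Rspo1 and Rspo2 fell by 1.48 and 1.34. The feedback target Axin2 (0.21) did not pass, and Nkd1 fell by 1.02.

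In prostaglandin synthesis, the higher level of Ptgs1 was not shared by Ptgs2, the inducible cyclooxygenase, which was at 1094, 1409 and 1105 CPM in members and at 1113, 1179 and 1340 CPM in comparison cells (log2 fold change -0.05, adjusted p = 0.715, edgeR). Of 16 tested genes of prostaglandin synthesis, transport and reception, 3 rose, 5 fell and 8 did not pass, with a median of -0.15. All genes tested had shares of 10.3% higher and 11.6% lower. The 3 that rose include Ptgs1, so their number shows nothing about the list. Pla2g4a, the phospholipase that releases arachidonic acid, rose by 0.36, and Ptgis, the prostacyclin synthase, by 0.16. The prostaglandin transporter Slco2a1 was at 35.8, 44.1 and 39.2 CPM against 64.5, 55.9 and 57.3 CPM and fell by 0.63, and the prostaglandin E synthase Ptges fell by 0.23. Ptges no longer passed with DESeq2 or after thinning.

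Among 15 tested integrins, 6 rose, 1 fell and 8 did not pass, with a median of 0.13 (all genes: 10.3% higher, 11.6% lower). Itgb7 accounted for the largest of these changes, followed by Itgb6 (1.40), a partner of the αv chain that was below 5 CPM in every mouse. Itga2, Itgb3 and Itga9 rose by 0.27, 0.17 and 0.16 with overlapping levels. Leaving out mouse 1 ended the calls of these 3 genes, and leaving out mouse 3 also ended those of Itgb3 and Itga9. All 3 calls were also lost with DESeq2, after thinning and in cells with at most 1 UMI of Nr4a3 and Fosl1 together. The collagen and fibronectin receptor chain Itgb1, at a mean of 376 CPM in both, did not pass.

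Cytokines that act on myeloid cells went both ways. Of 19 tested, 3 rose, 7 fell and 9 did not pass, with a median of -0.17 (all genes: 10.3% higher, 11.6% lower). Il34 is counted among those that rose, as Itgb7 and Ptgs1 are in their lists, although they had been named as markers on the same data. Near the share of all genes, the number that rose shows nothing about the list. Ccl2, the main monocyte chemoattractant, was at 2356, 3009 and 3909 CPM in members and at 1147, 1444 and 2899 CPM in comparison cells and rose by 0.81. Il33, an alarmin, rose by 0.78. Csf1, the other ligand of the CSF1 receptor, was at 267, 230 and 286 CPM against 297, 258 and 350 CPM and fell by 0.24. Il6 fell by 0.85, Kitl by 0.98, Ccl8 by 0.87 and Cxcl12 by 0.85. Kitl no longer passed (-0.16) and Cxcl12 fell by 0.19 when comparison cells were matched on Dpp4 and Pi16 UMIs.

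Most genes of a list of fibrillar matrix fell. Of 36 tested, 24 fell, 8 rose and 4 did not pass, with a median of -0.33 (all genes: 11.6% lower, 10.3% higher). The collagens Col1a1, Col1a2 and Col3a1 fell by 0.38, 0.41 and 0.60. Lox, which crosslinks collagen and elastin, was at 51.7, 60.0 and 66.0 CPM in members and at 166, 150 and 168 CPM in comparison cells, and fell by 1.48 (SE 0.0611, edgeR adjusted p = 4.55e-09). Fbln1, Pcolce and Col5a3 fell by 1.22, 0.89 and 0.79. An exon of Pcolce overlaps one of Fbxo24 on the same strand, and the effect of this on its counts was not tested. Mfap4 was at 2.15 ± 0.789 CPM against 18.1 ± 5.07 CPM (SD, n = 3) and fell by 3.08. Elastin (Eln) fell by 0.21. The genes that rose included the microfibril components Fbn1 and Mfap5, by 0.33 and 0.57, with Efemp1 (0.49) and the collagens Col14a1 (0.67) and Col12a1 (0.37).

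Genes of the response to tissue dissociation mostly fell. Of 24 tested, 16 fell, 1 rose and 7 did not pass, with a median of -0.28 (all genes: 11.6% lower, 10.3% higher). Fos and Jun, the AP-1 subunits induced by digestion, fell by 0.30 and 0.40, and Socs3, a cytokine-signalling inhibitor, was at 333, 371 and 212 CPM against 660, 680 and 417 CPM and fell by 0.98. Hspa1b and Zfp36 fell by 0.61 and 0.51. Fosl1, another AP-1 subunit, was the gene that rose, at 112, 112 and 180 CPM against 60.5, 70.0 and 145 CPM (log2 fold change 0.56). Cells with more than 1 UMI of Nr4a3 and Fosl1 together were 51.4%, 60.5% and 63.4% of members and 40.9%, 50.4% and 56.3% of comparison cells. In the remaining cells 983 genes were higher and 1184 lower. Fosl1 itself is limited by that choice of cells, so its value there (0.13) says nothing about its difference.

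Beside the 10.3% higher and 11.6% lower of all genes tested, the counts of interferon-response and cell-cycle genes show nothing particular to these lists. Of 16 tested interferon-response genes outside the gate, 1 rose, 3 fell and 12 did not pass, with a median of -0.10. Ifit2 rose by 0.29, a call that was lost with DESeq2 and after thinning, and Ifi27l2a and Gbp2 fell by 0.40 and 0.31. Of 14 cell-cycle genes, 2 fell and 12 did not pass, with a median of -0.22. Those that fell were Cenpf and Ube2c, at 0.784 and 1.82 CPM in members, and the proliferation marker Mki67 was at 1.67 CPM against 2.32 CPM.

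Within the gate, levels moved with the number of UMIs of the 4 genes, which is given as a description with no test. Gated cells were divided into those with 0 to 1, 2 to 3, 4 to 7, 8 to 15 and 16 or more UMIs of Krtdap, Dmkn, Sbsn and Bmp3. Il34 was at 9.58 ± 2.42, 22.7 ± 8.98 and 56.6 ± 13.3 CPM (SD, n = 3) in the last 3 classes, which make up the members. Ptgs1 was at 33.5 ± 9.42, 51.7 ± 18.8 and 114 ± 28.5 CPM, and Itgb7 at 53.3 ± 5.80, 75.6 ± 5.86 and 155 ± 12.97 CPM. Inmt went the other way, at 144 ± 55.1, 85.0 ± 31.7 and 45.7 ± 17.3 CPM. Cilp differed in shape, at 36.7 ± 10.5 CPM in cells with 0 to 1 UMI and 4.03 ± 2.54 CPM already in those with 2 to 3. Of the 36 named genes that passed as higher, 25 increased from class to class within the members in all 3 mice, and 20 did so over all 5 classes. Of the 39 named genes that passed as lower, 28 decreased within the members in all 3 mice and 18 over all 5 classes. These genes passed for a difference between the first class and the members, so order over all 5 classes was partly built in. Such counts over all genes tested are not given, so these show nothing particular to the named genes. Krt10 stayed between 27.1 and 31.3 CPM on average. Median depth differed little between the classes, from 7197 UMIs in the first to 7713.5 in the last in mouse 1, from 11844 to 12263 in mouse 2 and from 6498 to 7404 in mouse 3.

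**Figure D5:**
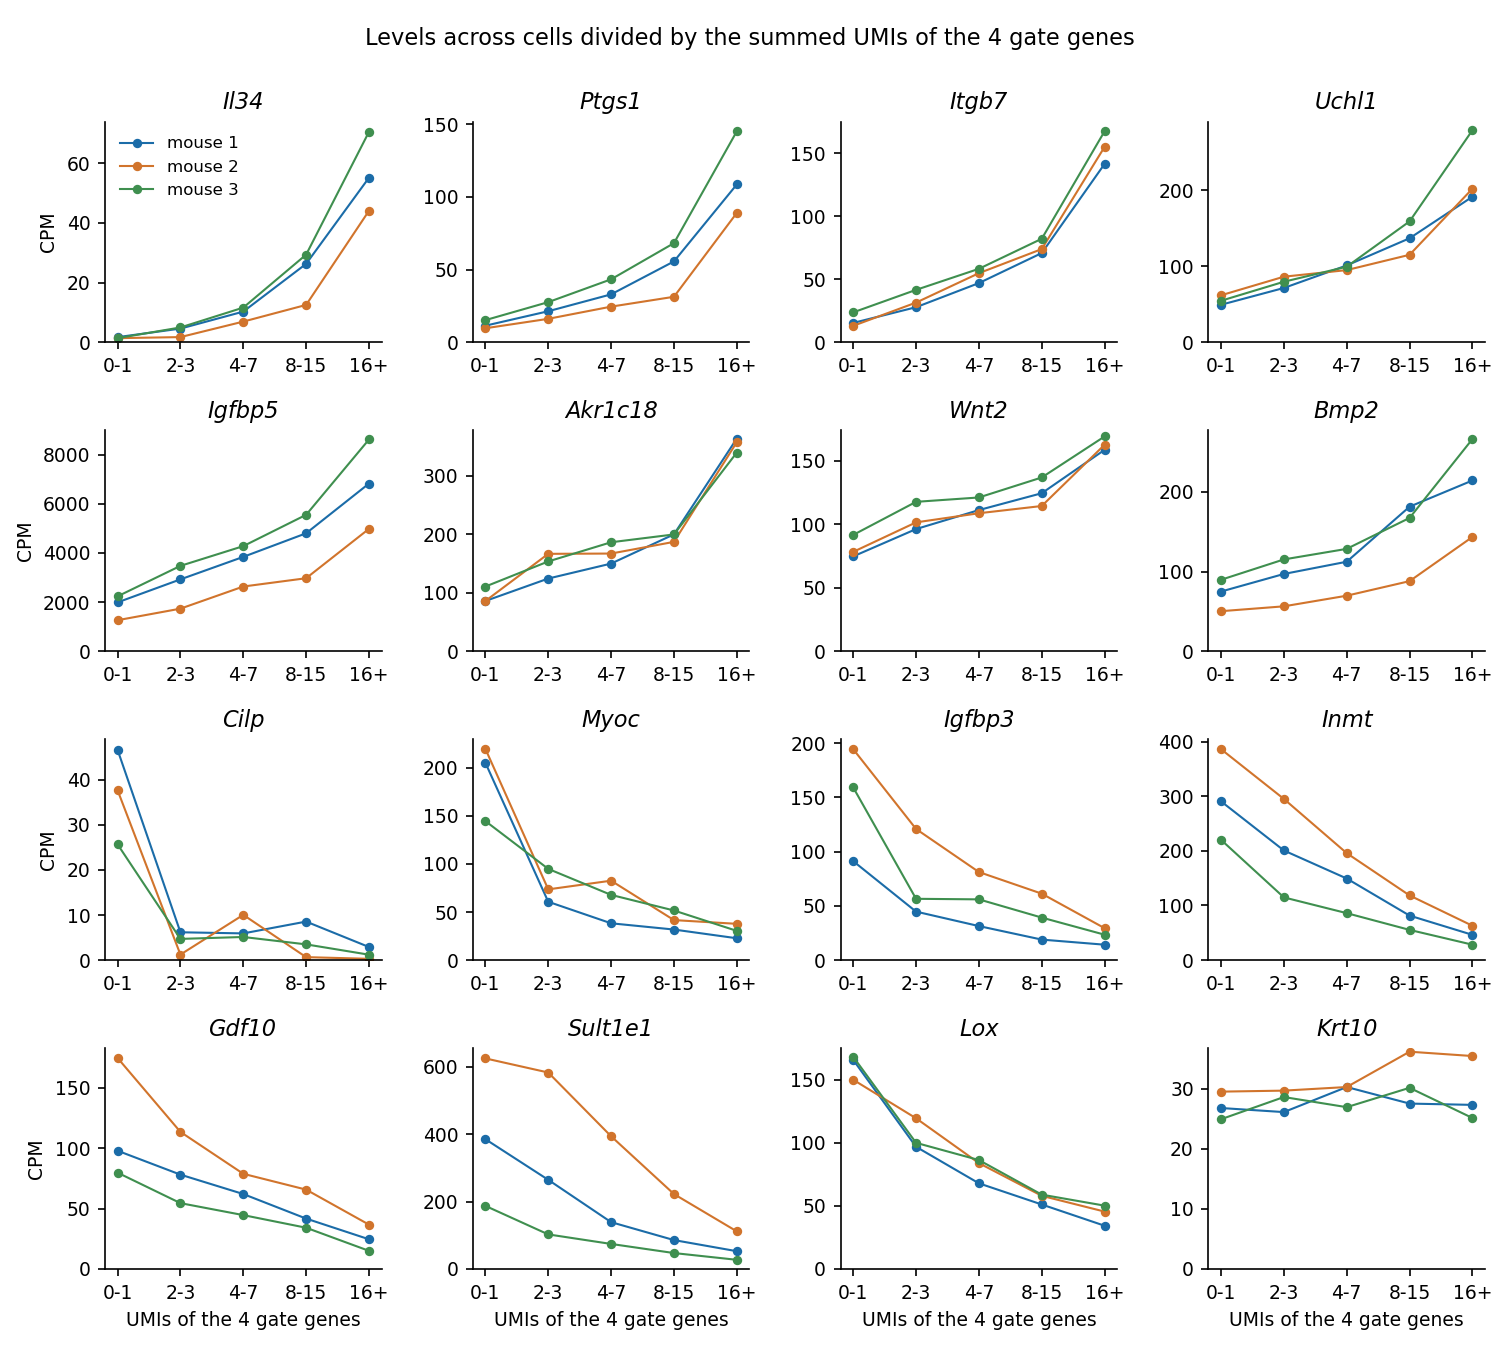
CPM (y axis, from 0) of 16 genes in gated cells divided into 5 classes by their summed UMIs of Krtdap, Dmkn, Sbsn and Bmp3 (x axis), with 1 line per mouse. Il34, Ptgs1, Itgb7, Uchl1 and Igfbp5 climb in every mouse, Inmt, Igfbp3, Gdf10, Sult1e1 and Lox decline in every mouse, and Krt10 shows no trend.

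Depth and mitochondrial share differed slightly between the gates. Median UMIs per cell were 7445.5, 12059 and 6954 in members and 7197, 11844 and 6498 in comparison cells of mice 1, 2 and 3, and the median mitochondrial share was 1.39%, 1.97% and 1.61% against 1.21%, 1.92% and 1.40%. With all cells thinned to 3000 UMIs and regated at 2 or more UMIs of the 4 genes against 0, Il34 was 4.24, Ptgs1 2.30, Itgb7 2.28 and Uchl1 1.31 higher on the log2 scale. In that comparison Col15a1 fell by 0.90 in place of 1.53, and 868 genes were higher. Libraries shared 52, 81 and 64 cell barcodes in the pairs of mice 1 and 2, 1 and 3, and 2 and 3.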

How the data were processed

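Per the file headers and processing notes, the authors made gene-by-barcode tables of UMI counts with Cell Ranger from reads aligned to mm10. The labels give replicates 1, 2 and 3 and the study names 3 mice, so each library was taken as 1 mouse. Pooling of mice is not described there. The matrix headers name version 4.0.0, and the submitters' processing notes name 2.1.1. The deposited counts are raw, and the 36790 called barcodes were 13698, 6872 and 16220 in mice 1, 2 and 3. No doublet caller was run here. Kept cells were gated as described, and counts were summed per mouse and gate. Members and gene lists were chosen with earlier results of these data known.

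Sums were compared with edgeR 4.0.16 in R 4.3.3 (filterByExpr, TMM, glmQLFit, glmQLFTest), with the 12 gate genes left out and p-values adjusted by the Benjamini-Hochberg method over 12983 genes. Mouse was a block, because both sums of a mouse come from 1 animal and library. Deviations of same-mouse sums from the gate means correlated at r = 0.524, 0.742 and 0.686 across 12652 genes. The procedure was tested on simulated counts, but the outcome is not given here. With each library taken as 1 mouse and mouse as a block, the p-values measure the spread of the difference between gates over 3 animals.

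Genes were named if they were markers or gate genes, if they were among the 4 largest changes of a list, or if they were among the 15 largest rises or 10 largest falls outside the lists. A mean of at least 20 CPM in the higher gate and 1 sign in all mice were required. The most abundant gene of each other cell type was added. Further list members, such as Bmp6, Mfap4 and Itgb6, were named by their roles after their values were seen. A few genes that met these rules are not reported here. Positions come from GENCODE M21 (GRCm38). Alternatives were scaling by library size, no filter, no block, DESeq2 1.42.0, leaving out each mouse, other limits of the gates, thinning to 3000 UMIs and matched comparison cells. Matching on Dpp4 and Pi16 UMIs, and leaving out cells with Cilp, Myoc, Clec11a or Fmo2, were chosen after seeing the data.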

Additional observations from a re-analysis of the deposited data

How the results depend on the processing

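The share of Krtdap-positive progenitors depended on where the sum was limited. It was 12.8% of kept cells with at least 8 UMIs, 26.5% with at least 2 and 18.8% to 20.2% when a mouse was left out. The counts of genes higher (1331) and lower (1502) became 62 and 88 without the replicate block, 618 and 761 with DESeq2, and 868 and 1074 after thinning. They ranged from 756 to 1216 and from 948 to 1561 when a mouse was left out, with the fewest without mouse 1. Scaling by library size alone gave 1930 and 1276. The causes of these differences were not tested. Named genes had 1499 alternative values, of which 1403 kept direction and call. A further 82 lost the call (43 of them without the replicate block), 3 gained it with the same sign and 11 changed sign. Some of the values that changed sign also passed.

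The sign changes were in Des and Hbb-bs, which did not pass in the comparison as reported. Des (-0.21) ranged from -0.36 to 0.0087 when a mouse was left out, with the positive value without mouse 1. Hbb-bs (0.08) ranged from -2.65 to 2.07 when a mouse was left out. It was -0.48 with DESeq2, -2.99 with at least 8 UMIs, -0.24 with at least 2, -0.33 against cells with a sum of 0, -0.58 against cells matched on UMIs, -2.73 after thinning and -1.90 in cells with little Nr4a3 and Fosl1. It was -0.24 without Cilp, Myoc, Clec11a or Fmo2 cells and -0.74 against cells matched on Dpp4 and Pi16. The negative values of Hbb-bs passed without mouse 1, with at least 8 UMIs, after thinning and in cells with little Nr4a3 and Fosl1. Its positive values passed without mouse 3 and, at 1.67, with cells above the 95th UMI percentile removed. The sums of members held at most 20166708 UMIs, which limits the precision of genes at a few CPM.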
